A study of Oryctolagus cuniculus with 12 samples.

Results

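The white and brown fat cell genes ADIPOQ, LEP, PPARG, LPL, THRSP, UCP1 and DIO2 were examined in aortic rings of rabbits with and without an experimental coarctation, a narrowing of the aorta. They were chosen by name, but with earlier results of these data known. The study had already reported UCP1 and PPARG among its changed genes from these arrays, so the counts of called probes below are no independent test. Every probe whose RefSeq accession maps to one of these rabbit symbols was taken, which gave 15 of the 43603 different probes on the array and 7 of the 1264 genes with a symbol. UCP1 and DIO2 had 5 probes each, and the other genes had 1 each. A gene with several probes is represented by the probe with the highest mean signal over the arrays used, and its other probes are given beside it.

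White fat cells store triglyceride and release hormones into the blood, among them leptin and adiponectin. Brown fat cells burn fatty acids to make heat through the mitochondrial protein UCP1, and the enzyme DIO2 supplies them with active thyroid hormone from within the cell. The thoracic aorta is surrounded by perivascular fat that can resemble brown fat, and the thymus and other mediastinal tissue lie close by. A ring of whole aorta can therefore carry some fat on its outer side, and in RNA from a whole ring fewer fat cells and less RNA per fat cell cannot be told apart.

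All rabbits were male New Zealand white and were 32 weeks old when the ring of thoracic aorta, 4 mm long, was taken. In the CoA group a permanent silk suture had been tied at 10 weeks to impose a pressure gradient of 20 mmHg. In the Corrected group the suture was degradable Vicryl, so that the narrowing was released as the suture dissolved, with modest narrowing left. Control rabbits had no suture, and no sham-operated group is among the samples, so that surgery and narrowing cannot be told apart in the comparisons with Control. Each group had 4 arrays with 1 dye. Corrected replicate 3 was left out of all comparisons, as the study did, because of its aberrant signal distribution, which left 4 Control, 4 CoA and 3 Corrected arrays.

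Of the 43803 spots on an array, 69.7 to 77.7% were well above background in Control, 55.8 to 69.7% in CoA and 61.8 to 68.5% in the Corrected arrays used, against 45.6% on Corrected replicate 3. The lowest log2 signal still read as well above background ranged over the arrays from 2.31 to 3.12 in Control, from 3.10 to 4.40 in CoA and from 3.22 to 3.82 in Corrected. The part of these differences in signal depth in the results below was not tested. No spot was saturated. The slides were inferred here from the scan time: arrays with the same scan time were taken as lying on the same slide. All CoA arrays were on such a slide of their own, so that slide and group cannot be told apart there. Corrected replicate 2 shared a slide with Control replicates 1, 2 and 4. Control replicates 3 and 4 were thus placed on different slides, and Control replicate 3 was scanned on another day. They were nonetheless the most alike of all pairs of the arrays used. The SD of their log2 differences, estimated from the median absolute deviation over probes detected on all 12 arrays, was 0.186. It was 0.313 or more for every other pair. Counts below are therefore also given with these arrays merged into 1 sample. The label of the tissue was checked on smooth muscle markers: 4 of the 10 listed genes had a named probe, and all 4 were well above background on all 12 arrays.

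Signals are quantile normalized log2 intensities, on which a difference of 1 is 2-fold. A probe is called where its groups differ by more than 2-fold with an unadjusted p under 0.05 in limma, which was fitted over all 43603 probes. This is a lenient criterion, and no probe of the 7 genes reached an adjusted p under 0.05 in any of the 3 comparisons. Against Control, their adjusted p was at least 0.200 in CoA and at least 0.338 in Corrected, and it was at least 0.900 between CoA and Corrected. Of the 15 probes, 11, 7 and 0 had an unadjusted p under 0.05 in these comparisons.

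In CoA vs Control, 9 of the 15 probes were called lower and 0 higher, against 5.23% of all probes called lower. The called probes were all 5 of UCP1, those of ADIPOQ, PPARG and THRSP, and 1 of the 5 of DIO2. By representative probe, 4 of 7 genes were called lower, against 6.18% of all genes with a symbol called lower and 4.75% called higher. The median log2 difference of the 7 genes was -2.55, against 0.06 over all probes. By measured signal, every CoA array lay below every Control array for 6 probes, that of PPARG and the 5 of UCP1, which held for 3.72% of all probes. For UCP1 the order of CoA replicate 3 and Control replicate 2 is not established, because the lowest signal well above background on that CoA array (4.40) exceeded the UCP1 signal of that Control array (3.88 to 4.24 over the 5 probes). Such a lowest signal is not a strict limit. On CoA replicate 4 it was 3.86, yet a DIO2 probe with 4.13 there was not well above background. For UCP1 the order of CoA replicate 4 and Control replicate 2 is therefore not established either. With Control replicates 3 and 4 merged, 7 probes were called, against 1477 of all 43603 probes called lower.

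In Corrected vs Control, 6 of the 15 probes were called lower and 0 higher, against 3.14% of all probes called lower. They were the 5 probes of UCP1 and that of PPARG, so that 2 of 7 genes were called, against 3.41% of all genes with a symbol called lower and 3.33% called higher. The median log2 difference of the 7 genes was -1.15, against 0.03 over all probes. By measured signal, the Corrected arrays lay entirely below the Control arrays for 8 probes, 5 of UCP1 and 3 of DIO2, which held for 3.91% of all probes. Except for A_04_P003836, the UCP1 probes were not well above background on Corrected replicate 4, nor was ADIPOQ with a signal of 4.06. The order of that array and Control replicate 2 is therefore not established for these UCP1 probes. With Control replicates 3 and 4 merged, 5 probes were called, against 987 of all 43603 probes called lower. Both comparisons use the same Control arrays and are not independent of each other.

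One slide, as inferred from the scan time, held arrays of both groups. On it, Corrected replicate 2 lay below all 3 Control arrays for 6 of the 7 genes, the exception being LEP. This held for 23.9% of all genes with a symbol. A fit with slide as a block called 2 of the 15 probes lower in Corrected vs Control, both of UCP1, and 663 of all 43603 probes. That fit rests on the 1 Corrected array and leaves the others without a Control array on their slide.

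In CoA vs Corrected, 0 of the 15 probes were called, against 3.35% of all probes called in either direction, and 0 had an unadjusted p under 0.05. Leaving out CoA replicate 3 gave 2 called probes, those of ADIPOQ and THRSP, and leaving out Control replicate 2 gave 1, of UCP1. Of all 43603 probes, 937 were called higher and 831 lower in the former fit, and 662 and 817 in the latter. The 95% intervals were wide. That of ADIPOQ ran from -4.28 to 0.59 and that of PPARG from -3.07 to 1.31, so the data bound the difference between CoA and Corrected loosely for these genes. The interval of LEP, from -0.81 to 0.63, was narrower and lay within 2-fold in either direction.

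**Figure D1:**
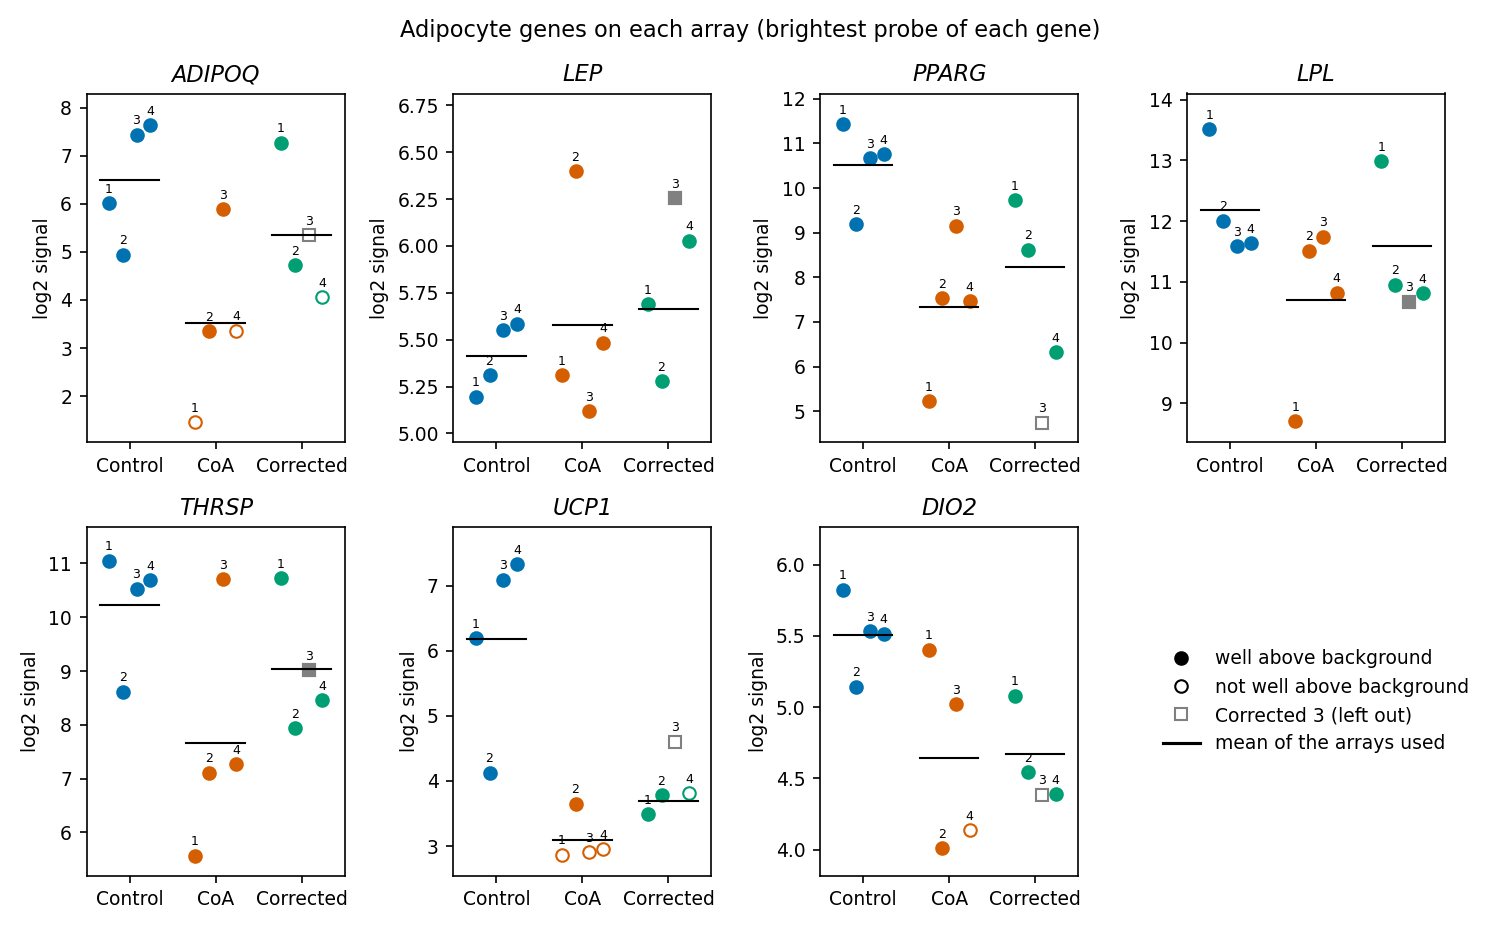
Quantile normalized log2 signal of the representative probe of each gene (vertical axis, a separate scale in each panel) on each array of the 3 groups (horizontal axis), with replicate numbers beside the points and the mean of the arrays used as a line. Filled points were well above background. All CoA arrays lie below all Control arrays for PPARG, most UCP1 points of CoA are open, and LEP stays between 5.12 and 6.40 on the arrays used.

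Adiponectin, the product of ADIPOQ, is a hormone made almost only by fat cells and serves as their marker. Its log2 signal was 6.01, 4.94, 7.44 and 7.64 on Control replicates 1 to 4. It was 1.45, 3.35, 5.89 and 3.36 on CoA replicates 1 to 4, and 7.27, 4.72 and 4.06 on Corrected replicates 1, 2 and 4. All 4 Control arrays were well above background, as were CoA replicates 2 and 3 and Corrected replicates 1 and 2. Of the CoA arrays, 3 lay below the lowest Control array, and CoA replicate 3 lay within the Control range.

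The mean ADIPOQ signal was 6.50 in Control, 3.51 in CoA and 5.35 in Corrected. ADIPOQ was called lower in CoA than in Control, by a log2 difference of -2.99 (standard error 1.01, limma's adjusted p = 0.264). The two-sided exact permutation p was 0.057. The difference was -3.79 without CoA replicate 3 and -2.31 without CoA replicate 1, and it was called under each omission of 1 array. CoA replicates 1 and 4 enter it with signals that were not well above background. With another background correction, normexp on the median signal, the difference was -0.93 and not called. In Corrected vs Control it was -1.15 (standard error 1.096) and not called, and it ranged from -2.11 without Corrected replicate 1 to -0.51 without Corrected replicate 4. The ADIPOQ probe was printed in 5 spots on each array, and the SD of the log2 signal between them was 0.0587 to 0.603.

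PPARG encodes the nuclear receptor that drives the formation of fat cells and the expression of many of their genes. Its log2 signal was 11.44, 9.19, 10.68 and 10.76 on the Control arrays, in the order of replicates. It was 5.22, 7.53, 9.15 and 7.46 on the CoA arrays, and 9.72, 8.62 and 6.32 on Corrected replicates 1, 2 and 4. The CoA arrays lay below all Control arrays, although CoA replicate 3 was close to Control replicate 2. Corrected replicate 1 lay within the Control range.

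The mean PPARG signal was 10.52 in Control, 7.34 in CoA and 8.22 in Corrected. PPARG was called lower in CoA, by -3.17 (standard error 0.91, limma's adjusted p = 0.235). The two-sided exact permutation p was 0.029, the smallest that 4 against 4 arrays allow. The difference was -2.47 without CoA replicate 1 and -3.78 without CoA replicate 3. PPARG was also called lower in Corrected, by -2.29 (standard error 0.99, limma's adjusted p = 0.569, exact permutation p = 0.114). This call was lost in 7 of the 11 fits that left out 1 array, namely Control replicate 1, 3 or 4, CoA replicate 2 or 4, or Corrected replicate 2 or 4, with -1.34 without Corrected replicate 4. It was also lost with Control replicates 3 and 4 merged (-2.23) and with slide as a block (-1.84).

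LPL encodes lipoprotein lipase, the enzyme that releases fatty acids from circulating triglyceride, and it is made in fat, muscle and macrophages. Its log2 signal was 13.51, 12.004, 11.59 and 11.63 on the Control arrays. It was 8.70, 11.51, 11.75 and 10.82 on the CoA arrays, and 12.99, 10.96 and 10.81 on Corrected replicates 1, 2 and 4. CoA replicate 1 stood lowest, and the groups overlapped.

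LPL differed between CoA and Control by -1.49 on the log2 scale (95% interval -3.17 to 0.19, standard error 0.76, adjusted p = 0.391 in limma). Between Corrected and Control it differed by -0.60 (standard error 0.82). LPL was not called in either comparison. Without CoA replicate 3 it was called lower in CoA (-1.84), and without CoA replicate 1 its difference was -0.82.

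THRSP encodes a small nuclear protein of fat and liver that responds to thyroid hormone and carbohydrate and promotes the synthesis of fatty acids. Its log2 signal was 11.05, 8.61, 10.53 and 10.69 on the Control arrays. It was 5.57, 7.11, 10.71 and 7.27 on the CoA arrays, and 10.73, 7.94 and 8.45 on Corrected replicates 1, 2 and 4. CoA replicate 3 and Corrected replicate 1 were as high as the upper Control arrays, and the other CoA arrays lay below every Control array.

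THRSP was called lower in CoA, by -2.55 (standard error 1.05, limma's adjusted p = 0.312, exact permutation p = 0.114). The call was lost in 6 of the 11 fits that left out 1 array, namely Control replicate 1, 3 or 4 or CoA replicate 1, 2 or 4. It was also lost with Control replicates 3 and 4 merged (-2.43) and with normexp on the median signal (-1.84). Without CoA replicate 1 the difference was -1.86, and without CoA replicate 3 it was -3.57. In Corrected vs Control the difference was -1.18 (standard error 1.14) and not called, with -2.02 without Corrected replicate 1.

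LEP encodes leptin, the hormone by which white fat signals the size of its stores. Its log2 signal was 5.20, 5.31, 5.55 and 5.59 on the Control arrays. It was 5.31, 6.40, 5.12 and 5.48 on the CoA arrays, and 5.69, 5.28 and 6.03 on Corrected replicates 1, 2 and 4. LEP was well above background on all 12 arrays.

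Unlike those of the other 6 genes, the mean LEP signal was not lower in CoA or Corrected than in Control. Its log2 difference was 0.17 for CoA vs Control (95% interval -0.50 to 0.83, exact permutation p = 0.771) and 0.26 for Corrected vs Control (95% interval -0.46 to 0.97, exact permutation p = 0.286). The first turned to -0.11 without CoA replicate 2, the array with the highest LEP signal. These intervals exclude a 2-fold difference in either direction.

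**Figure D2:**
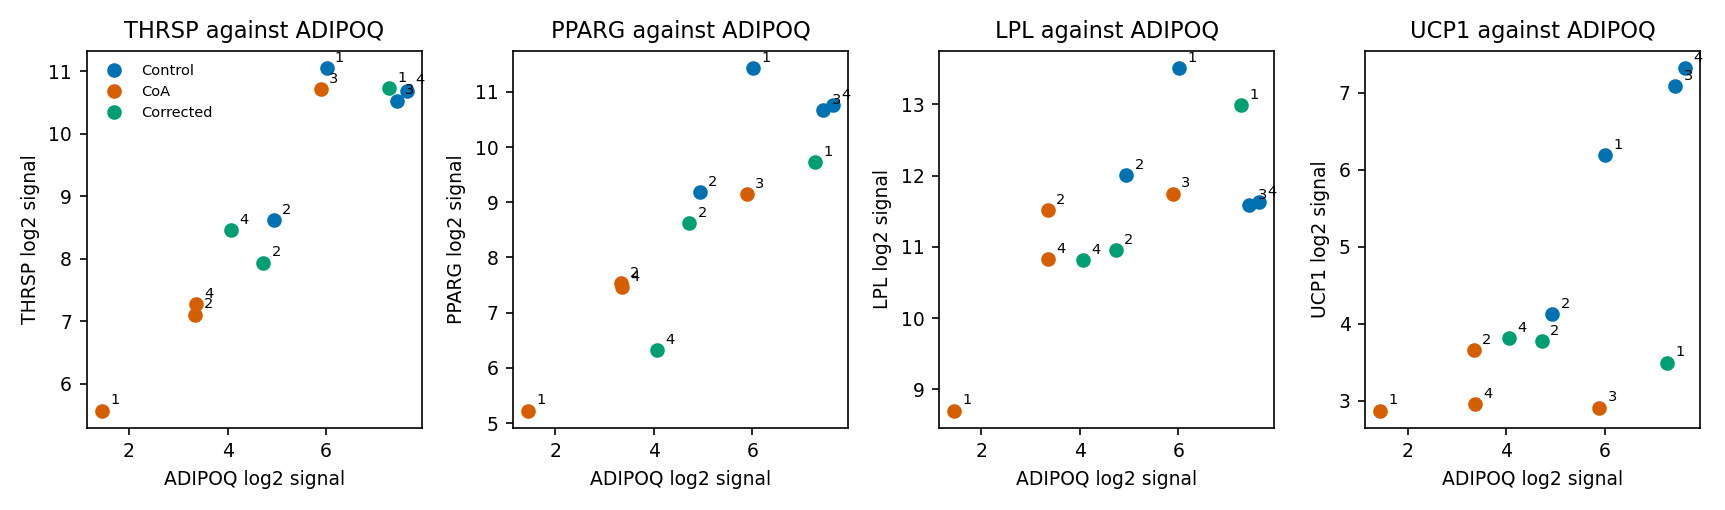
Log2 signal of THRSP, PPARG, LPL and UCP1 (vertical axes) against that of ADIPOQ (horizontal axes) on the 11 arrays used, coloured by group and numbered by replicate. THRSP and PPARG rise with ADIPOQ across the arrays, whereas the measured UCP1 signal stays between 2.87 and 3.81 on all CoA and Corrected arrays, also on those with much ADIPOQ.

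Across the 11 arrays used, the signals of ADIPOQ, PPARG, LPL and THRSP were correlated with each other. All 21 pairs of the 7 genes were tested, with permutation p-values adjusted over the 21 pairs. ADIPOQ and THRSP had Pearson's r = 0.940 (raw permutation p = 6.0e-05, adjusted p = 0.00126) and Spearman's rho = 0.845 (raw permutation p = 0.00197, adjusted p = 0.00958). ADIPOQ and PPARG had r = 0.895 (raw permutation p = 0.00029, adjusted p = 0.00259) and rho = 0.900 (raw permutation p = 0.00042, adjusted p = 0.00882). PPARG and THRSP had r = 0.882 (raw permutation p = 0.00037, adjusted p = 0.00259) and rho = 0.836 (raw permutation p = 0.00228, adjusted p = 0.00958).

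Of the 21 pairs, 7 had an adjusted p under 0.05 for Pearson's r. They were all 6 pairs among ADIPOQ, PPARG, LPL and THRSP, plus PPARG with UCP1 (r = 0.739, rho = 0.700). For Spearman's rho, PPARG with UCP1 and ADIPOQ with LPL had an adjusted permutation p of 0.0610 each, and the others of the 7 were under 0.05. The UCP1 probe was not well above background on CoA replicates 1, 3 and 4 and Corrected replicate 4. LPL was correlated with PPARG (r = 0.825), THRSP (r = 0.808) and ADIPOQ (r = 0.731). When the 2 arrays farthest from the median of the first gene were left out, r was 0.904 for ADIPOQ with THRSP, 0.807 for ADIPOQ with PPARG and 0.888 for PPARG with THRSP. For LPL it was 0.654 with PPARG, 0.614 with THRSP and 0.616 with ADIPOQ. For DIO2, of which no pair passed over the 11 arrays, it was 0.980 with PPARG, 0.878 with THRSP and 0.834 with ADIPOQ. With LPL, UCP1 and LEP it was 0.531, 0.488 and -0.034. Without CoA replicate 1 alone, DIO2 had r = 0.930 with PPARG and 0.894 with THRSP (adjusted permutation p = 0.00336 and 0.00714). The place of DIO2 outside the correlated genes thus depended on that array. LEP was correlated with no other member: its r ranged from -0.579 with DIO2 to -0.036 with UCP1.

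A difference between groups alone makes genes correlate, so the correlation was repeated on the deviations of each array from the mean of its group. The deviations gave r = 0.906 for ADIPOQ with THRSP, 0.855 for ADIPOQ with PPARG, 0.841 for PPARG with THRSP and 0.798 for PPARG with LPL. After permutation within groups, 0 of the 21 pairs had an adjusted p under 0.05, the smallest being 0.0977, and the raw permutation p of ADIPOQ with THRSP was 0.00625. For PPARG with UCP1 the r of the deviations was 0.273. No group has enough arrays for a correlation of its own. With Control replicates 3 and 4 merged, 6 pairs passed and r was 0.940 for ADIPOQ with THRSP. PPARG with UCP1 was then no longer among them (adjusted p = 0.0678).

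**Figure D3:**
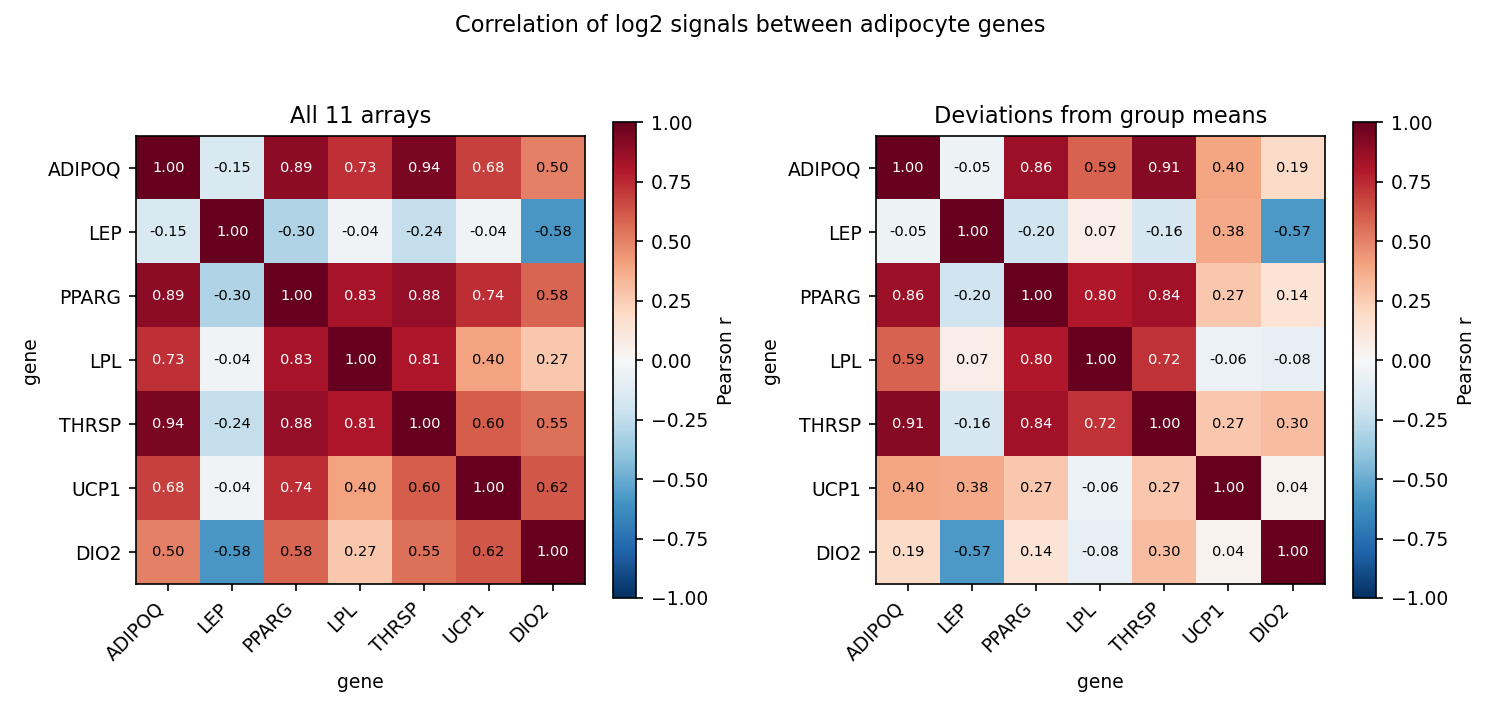
Pearson's r between the log2 signals of each pair of the 7 genes over the 11 arrays used (left) and between their deviations from the group means (right), on a colour scale from -1 to 1. The block of ADIPOQ, PPARG, LPL and THRSP holds r of 0.73 to 0.94 on the left and of 0.59 to 0.91 on the right, and UCP1 has 0.40 or less with each gene on the right.

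UCP1 encodes the uncoupling protein that lets protons leak back into the mitochondrial matrix, so that brown fat turns fuel into heat. The representative probe, A_04_P003840, had a log2 signal of 6.19, 4.13, 7.09 and 7.33 on the Control arrays. It had 2.87, 3.65, 2.91 and 2.95 on the CoA arrays, and 3.49, 3.78 and 3.81 on Corrected replicates 1, 2 and 4. Control replicate 2 was far below the other Control arrays and close to the Corrected arrays, yet by measured signal still above each of them.

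Every Control array had this probe well above background, against CoA replicate 2 alone among the CoA arrays and Corrected replicates 1 and 2, so most of the lower values lie at the limit of the measurement. In CoA it was lower than in Control by a log2 difference of -3.09 (standard error 0.60, adjusted p = 0.200 in limma). The exact permutation p of 0.029 rests on the measured order of CoA replicates 3 and 4 against Control replicate 2, which is not established. In Corrected the difference was -2.49 (standard error 0.65, adjusted p = 0.369 in limma), with an exact permutation p of 0.057, the smallest that 4 against 3 arrays allow. That p likewise rests on the measured order of Corrected replicate 4 and Control replicate 2. Without Control replicate 2 these differences were -3.77 and -3.17. With normexp on the median signal they were -0.93 and -0.88, under 2-fold and not called. Between CoA and Corrected the difference was -0.60 (95% interval -2.03 to 0.84).

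The other UCP1 probes were also called lower in both groups than in Control. Their measured log2 differences ran from -4.87 to -3.42 in CoA and from -4.32 to -3.55 in Corrected. Those of the representative probe were thus the smallest of the 5. Probe A_04_P003836 had 6.95, 4.205, 7.96 and 8.14 on the Control arrays and 3.04, 2.11, 1.31 and 1.33 on the CoA arrays, none of which was well above background. Where a probe was not well above background on any array of a group, a limit was put in place of its signal. This limit was the dimmest signal well above background on each array, or the probe's own signal where that was higher. A signal past this limit could still fall short of well above background, as that of ADIPOQ did on Corrected replicate 4 (4.06 against 3.82). The folds below are therefore approximate and not strict lower bounds. In CoA the approximate bounds were 8.52-fold lower for A_04_P003836, 8.51-fold for A_04_P003837 and 5.77-fold for A_04_P003839. The adjusted p in limma was 0.200 for each of these.

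In Corrected, the approximate bounds were 9.91-fold lower for A_04_P003837, 6.88-fold for A_04_P003838 and 6.65-fold for A_04_P003839, with adjusted p-values in limma of 0.340, 0.352 and 0.338. The 5 probes target the same gene and were read on the same arrays, so they are not 5 independent measurements of the groups. None of them was both positive and significant and well above background on 8 or more of 12 arrays, whereas 10 of the 15 probes, of 6 of the 7 genes, were. This rule stands in for the detection flag of the study's software, which may differ from it. The study required its flag on at least 8 of 12 samples and still reported UCP1 as lower, so probes it read as UCP1 passed. It also reported UCP1 as lower than in Control by qRT-PCR. It could not reproducibly relate the level of UCP1 protein to that of its mRNA.

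UCP1 stood apart from ADIPOQ on Corrected replicate 1, which had an ADIPOQ signal of 7.27, in the upper part of the Control range, and a UCP1 signal of 3.49, below every Control array. The UCP1 probe was well above background on that array.

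DIO2 encodes the deiodinase that converts thyroxine to active triiodothyronine inside the cell and is induced in active brown fat. The representative probe, A_04_P032667, had a log2 signal of 5.82, 5.14, 5.53 and 5.52 on the Control arrays. It had 5.403, 4.01, 5.02 and 4.13 on the CoA arrays, and 5.08, 4.54 and 4.39 on Corrected replicates 1, 2 and 4. The Corrected arrays lay below the Control arrays, and CoA replicate 1 lay within the Control range. All 5 DIO2 probes were well above background on every Control array, and none was on CoA replicate 4.

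Against Control, the log2 difference of this probe was -0.86 in CoA (standard error 0.34, adjusted p = 0.299 in limma, exact permutation p = 0.057). In Corrected it was -0.83 (standard error 0.37, adjusted p = 0.579 in limma, exact permutation p = 0.057). Both were under 2-fold and not called. Without CoA replicate 1 DIO2 was called lower in CoA (-1.12), and without Corrected replicate 1 it was called lower in Corrected (-1.04). Over the 5 probes the differences ran from -1.44 to -0.76 in CoA and from -1.49 to -0.69 in Corrected, and A_04_P032668 was the probe called in CoA. That probe was well above background on 2 of 4 CoA arrays and 2 of 3 Corrected arrays.

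**Figure D4:**
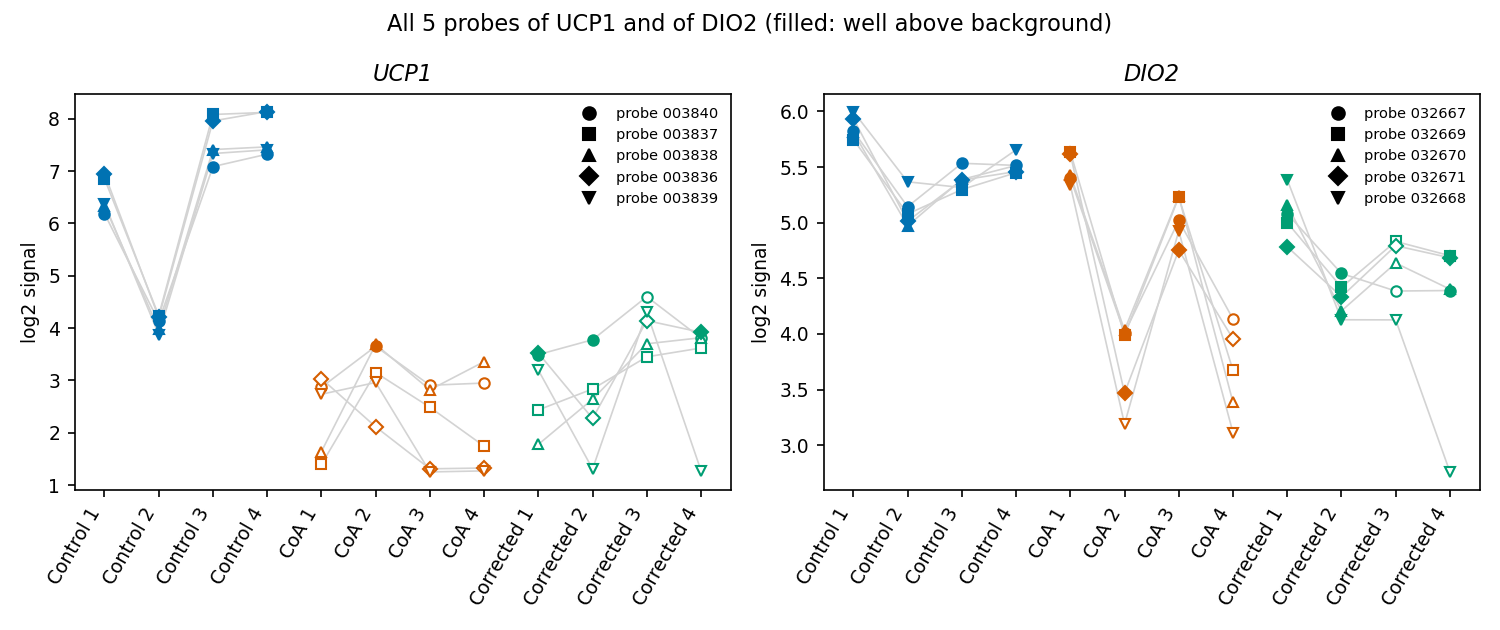
Log2 signal (vertical axis) of the 5 probes of UCP1 (left) and the 5 of DIO2 (right) on each of the 12 arrays (horizontal axis), with symbols for probes, filled where the probe was well above background, and grey lines joining the arrays of a group. The UCP1 probes agree closely on the Control arrays, where Control replicate 2 lies near 4 for each, and scatter on the CoA and Corrected arrays, where few are well above background.

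**Figure D5:**
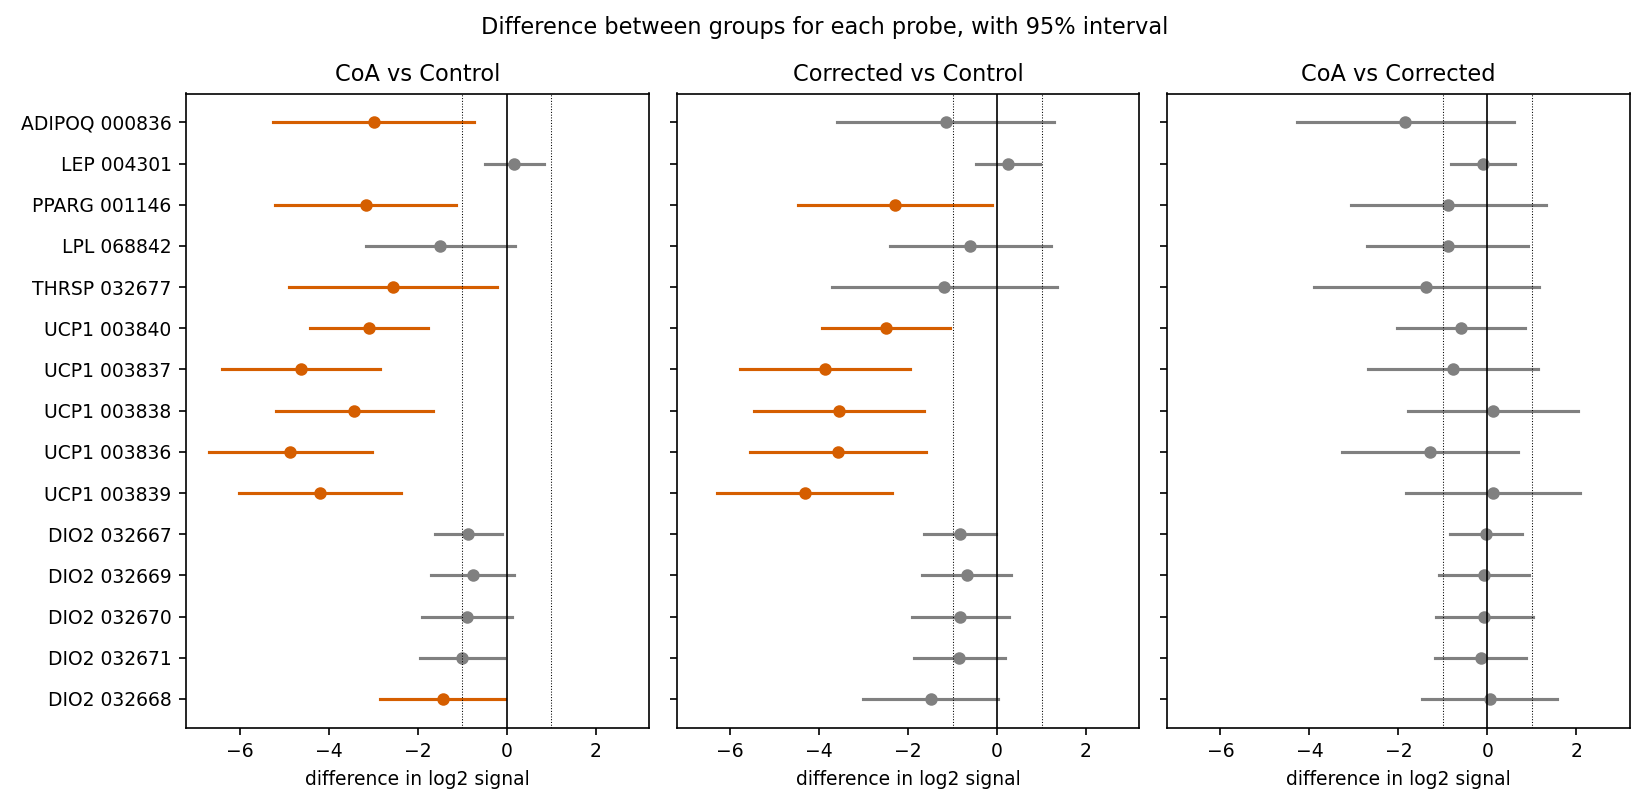
Difference in mean log2 signal between the groups (horizontal axis, first group minus second) for each of the 15 probes (vertical axis, gene and last digits of the probe name), with the 95% interval from limma, called probes in orange, dotted lines at a 2-fold difference and probes not well above background drawn at their measured signal. UCP1 and PPARG are called against Control in both groups, and every interval for CoA vs Corrected includes 0.

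Other genes of fat and lipid metabolism could be read for a small part of the planned lists, because few probes on the array could be given a rabbit symbol. Genes without such a named probe can still be measured by other probes. The study, which mapped probes to human genes, reported some of them as changed, among them CD36 and SLC27A2. Of 32 further white fat genes, 4 had a named probe, and all 4 are given here. SLC2A4, the insulin-responsive glucose transporter, had 12.59 ± 0.56 (SD, n = 4) in Control and 11.08 ± 1.59 (SD, n = 4) in CoA. RBP4, the retinol carrier, had 15.02 ± 0.66 (SD, n = 4) and 13.97 ± 0.66 (SD, n = 4). Neither was called, with unadjusted limma p-values of 0.060 and 0.061. APOE, an apolipoprotein, was called lower in CoA (-1.70) and in Corrected (-1.78), but it was well above background on only 6 of 12 arrays. NPY1R, a receptor of neuropeptide Y, had differences of 0.73 and 0.21 and was not called. For this list 1 of 4 genes was thus called lower in each comparison, against 6.18% and 3.41% of all genes with a symbol. The median difference of the list was -1.28 in CoA and -0.45 in Corrected.

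None of the 22 further brown fat genes had a probe with a symbol, so that UCP1 and DIO2 are the only brown fat genes read here. Of 15 genes of fatty acid oxidation and ketone bodies, 1 had a named probe: SLC25A20, which carries acylcarnitines into mitochondria. It was called lower in CoA, by -1.83 (standard error 0.62, limma's adjusted p = 0.264), and had a difference of -1.05 in Corrected that was not called. Of 19 receptors and thyroid hormone genes, 4 had a named probe and 0 were called in either comparison with Control. They were ADIPOR1, a receptor for adiponectin, DIO1, NR1H3 and GHR.

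A further list of 30 lipid handling genes was drawn from the symbols present on the array. In CoA 2 of 30 were called lower, PPARD (-1.56) and TNMD (-1.34), and 0 higher. Of all genes with a symbol, 6.18% were called lower and 4.75% higher. PPARD was well above background on 6 of 12 arrays and TNMD on 7. In Corrected 0 were called lower and 1 higher, against 3.41% and 3.33% of all genes with a symbol. The gene called higher was LIPH (1.23), a lipase gene that was well above background on 0 of the 12 arrays. The median difference of the list was 0.19 in CoA and -0.03 in Corrected, against 0.06 and 0.03 over all probes.

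Markers of other tissues also differed between the groups, and their part in the differences above was not tested. For comparison with the counts of these lists, 6.18% of all genes with a symbol were called lower and 4.75% higher in CoA. In Corrected these shares were 3.41% and 3.33%. Of the list for T cells and the thymus, 6 of 14 genes had a named probe, and 3 of the 6 were called lower in each comparison with Control. CD3G and LCK of this list, which had no named probe, were reported as lower by the study. CD3E, a chain of the T cell receptor complex, differed by -2.46 in CoA and -3.20 in Corrected. CD247, another chain of it, differed by -2.19 and -2.45, and CD5, a T cell surface protein, by -1.27 and -2.41. The other 3 were not called: RAG2, an enzyme of receptor gene rearrangement, had differences of 1.21 and 0.11, CD28 of 0.37 and 0.34 and CD4 of 0.29 and -0.12. The median of the list was -0.49 in CoA and -1.27 in Corrected. The mean log2 signal of the list was 5.25 to 5.62 on the Control arrays, 3.98 to 5.36 on the CoA arrays and 3.59 to 4.61 on the Corrected arrays used. CD3E was well above background on 6 of the 12 arrays and CD247 on 7. None of the 6 B cell genes had a named probe.

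The macrophage list had 5 genes with a named probe, of which SPP1, osteopontin, was called higher in CoA (2.86) and in Corrected (1.95). The mean log2 signal of the list was 6.18 to 7.02 in Control, 6.70 to 8.08 in CoA and 6.80 to 7.31 in Corrected. Of 9 skeletal muscle genes, TNNC2 was called higher in CoA (3.12), and TNNC2 (2.56), MYH1 (2.82) and MYL11 (1.01) were called higher in Corrected. The median difference of that list was -0.31 in CoA and 0.83 in Corrected. The range of that list was 4.66 to 6.30, 4.78 to 6.72 and 5.46 to 6.81 in Control, CoA and Corrected. Of 6 cardiac muscle genes, TNNC1 (3.31) and PLN (1.39) were called higher in CoA, and the range was 9.44 to 10.63, 10.49 to 13.19 and 10.17 to 11.68.

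Of 3 erythroid genes, HBA (-3.37) and HBB2 (-1.46) were called lower in CoA. The other, ALOX15, had differences of 1.43 in CoA and -0.61 in Corrected and was not called. ALOX15 also belongs to the macrophage list and was well above background on 4 of 12 arrays. The median difference of the erythroid list was -1.46 in CoA and -0.61 in Corrected. The mean log2 signal of that list ranged from 12.32 to 12.69 in Control, from 10.51 to 12.85 in CoA and from 11.41 to 12.52 in Corrected. Of 3 nerve genes, NPY was called higher in CoA (2.72) and in Corrected (1.49), with list ranges of 6.41 to 7.01, 6.73 to 8.69 and 6.85 to 7.50. No gene of the smooth muscle (4 genes), endothelium (6 genes) or fibroblast and matrix (4 genes) lists was called in either comparison with Control. The smooth muscle range was 12.38 to 13.27, 12.73 to 13.39 and 13.20 to 13.94.

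Among 947 other genes with a symbol and a probe detected on at least 8 of 12 arrays, those whose signal followed each member most closely over the 11 arrays were ranked by Pearson's r, as a description. For ADIPOQ they were TIMP4, an inhibitor of matrix metalloproteinases (r = 0.969), GHR, the growth hormone receptor (r = 0.935), and SLC1A5, a neutral amino acid transporter (r = 0.930). For PPARG they were SHMT1, a serine hydroxymethyltransferase (r = 0.941), PRLR, the prolactin receptor (r = 0.939), and GHR (r = 0.910). For THRSP they were PTGER3, a prostaglandin E receptor (r = 0.927), TIMP4 (r = 0.892) and HP, haptoglobin (r = 0.890). For LPL they were ACOX2, a peroxisomal acyl-CoA oxidase (r = 0.881), PTGER3 (r = 0.866) and SHMT1 (r = 0.838). GHR, TIMP4, PTGER3 and SHMT1 thus each appeared for a pair of these members.

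The genes closest to UCP1 were THEMIS2 (r = 0.884), GHSR, the ghrelin receptor (r = 0.852), and VCP (r = 0.826). Those closest to DIO2 were RLA-DR-ALPHA, a chain of the rabbit class II antigen-presenting molecule (r = 0.867), FMO4 (r = 0.855) and CYP2C (r = 0.842). For LEP they were SLC38A5 (r = 0.977), ART1 (r = 0.951) and OVGP1 (r = 0.945). No gene was shared between the lists of LEP, UCP1 or DIO2 and those of the other members. These arrays share groups, slides and signal depth, whose part in these correlations was not tested.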

How the data were processed

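Total RNA of 1 aortic ring per rabbit was labelled with Cy3 and hybridized to Agilent rabbit arrays. The authors deposited the Agilent Feature Extraction output (version 11.0.1.1) of each array, whose processed signal is an intensity on a linear scale after background subtraction. From these values the log2 intensity was computed here and outlier spots were dropped. The 12 arrays were then quantile normalized together, as the study did in other software, and spots of a probe were averaged last. Genes were named through RefSeq accessions.

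Groups were compared in limma 3.58.1 (R 4.3.3) over all 43603 probes on 11 arrays, with lmFit and eBayes and Benjamini-Hochberg adjustment, without a filter on detection. A filter after that of the study, 8 of 12 arrays detected, is an alternative, with a spot counted as detected where it was positive and significant and well above background. The criterion for a call is that of the study: over 2-fold, at p under 0.05 before adjustment. Single genes were tested by two-sided exact permutation, and pairs of genes by 100000 permutations (scipy 1.17.1). The limma step and the permutation were tested on simulated data. The number of arrays limits the precision. The members, the lists and the tests were chosen with earlier results of these data known, and the list of lipid handling genes after the files were opened, from symbols alone. Named genes are the members, the 3 genes most correlated with each, and at most 4 called genes of each list. The uncalled genes named from lists with up to 6 genes on the array fall outside this rule and were named after their values were seen. The alternatives are another set of arrays, array weights, scaling to the 75th percentile, normexp with an offset of 50, detection filters, a trended prior, blocks for slide, scan day and replicate number, and leaving out each array.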

Additional observations from a re-analysis of the deposited data

Results flagged for a closer look

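Of 30 groups of 4 arrays tested, 1 for each of the 15 probes in Control and in CoA, 1 had an array far from the others, where chance gives about 1 in 20. CoA replicate 2 had the highest signal of UCP1 probe A_04_P003840 in its group, 3.65 against 2.95 for the nearest array, a gap of 0.897 of the whole range of the group. The probe was not well above background on the other 3 CoA arrays, and the lowest signals well above background on CoA replicates 3 and 4 (4.40 and 3.86) exceed 3.65, so this gap is not one between measured levels.

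LEP had a log2 signal of 6.25 on Corrected replicate 3, which no comparison used, above the highest Control array (5.59). It lay below the highest CoA array (6.40). Only 45.6% of the spots of Corrected replicate 3 were well above background.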

How the results depend on the processing

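Member probes called in CoA vs Control (9) were 5 of 15 with normexp on the median signal, 4 of the 10 detected on at least 8 of 12 arrays and 1 of the 3 detected on all 12 arrays, as fewer probes were tested. Of all probes, 678 of 43603, 1426 of 27287 and 604 of 16957 were called lower in these fits. In Corrected vs Control (6) the member probes called were 2 of 10 and 0 of 3 under these filters, and 2 with slide as a block. Under the filters, 813 of 27287 and 357 of 16957 probes were called lower there. Without 1 array the member probes called ranged from 7 to 12, from 5 to 8 and, for CoA vs Corrected, from 0 to 2, where CoA replicate 3 and Control replicate 2 were the arrays that gave any. The log2 difference of LEP turned to -0.10 with array weights (CoA vs Control) and -0.086 with slide as a block (Corrected vs Control), and ranged without 1 array from -0.11 to 0.32 (CoA vs Control) and from -0.36 to 0.094 (CoA vs Corrected). That of DIO2 for CoA vs Corrected was 0.041 with all 12 arrays and ranged from -0.28 to 0.18 without 1 array. No other direction of a representative probe turned under the alternatives run. Correlated pairs (7) were 5 with the 75th percentile and ranged from 5 to 9 without 1 array, the last chosen after seeing the data.

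With normexp, ADIPOQ (-0.93) and UCP1 (-0.93 in CoA, -0.88 in Corrected) were under 2-fold. Scaling to the 75th percentile moved the median of all probes from 0.06 to 0.29 in CoA and from 0.03 to 0.19 in Corrected, and turned the calls over all probes in CoA vs Control from 1452 higher and 2281 lower to 4515 and 1997, yet 9 and 7 member probes were called lower. Adjusted p-values under 0.05 occurred for 9 member probes in CoA vs Control with array weights (9823 of all 43603 probes), for 5 with slide as a random block (836), and for 5 without Control replicate 2 (166), which gave 4 in Corrected vs Control (48). Replicate numbers did not pair the arrays: the deviations of equally numbered arrays correlated from -0.419 to 0.420. With the replicate number as a block, 9, 6 and 0 member probes were called, and PPARG in Corrected vs Control was -1.96 and not called.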
